A study of Mus musculus with 8 samples.

Results

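The genes described here are the matrix metalloproteinases (*Mmp*), their tissue inhibitors (*Timp*), the secreted ADAMTS proteases (*Adamts*) and the ADAMTS-like proteins (*Adamtsl*), measured as RNA in mouse liver. They were chosen by symbol alone, as every gene in the deposited table whose symbol is *Mmp*, *Timp*, *Adamts* or *Adamtsl* followed by its number, with at most 1 letter after an *Mmp* number. This gave 51 of 55385 gene identifiers, made up of 23 *Mmp*, 4 *Timp*, 19 *Adamts* and 5 *Adamtsl* genes. All 51 were found in GENCODE vM21 on GRCm38, the assembly also called mm10, and each gene coordinate below is from there.

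The study deleted *Usp39*, a gene of the spliceosome, with a hepatocyte-directed Cre and sequenced liver RNA with 1 library per mouse from 4 *Usp39*-HKO mice and 4 control littermates. All 8 mice were male, 5 weeks old and fasted for 16 h before the liver was taken. The *Usp39*-HKO mice carried a *Usp39* allele with 1 exon flanked by loxP sites (*Usp39* fl/fl). They also carried Cre under the albumin promoter (*Alb-Cre*), on a C57BL/6J background. The labels give the controls as WT, and the sources used here do not say whether they carried the floxed allele. Albumin-driven Cre is used to delete genes in hepatocytes, and which cells of these livers had lost the gene cannot be told from bulk RNA. The mice are named by their numbers, always in the order A468, A472, A473 and A475 for the controls and A469, A470, A471 and A474 for the *Usp39*-HKO group. Counts on genes summed to between 8589636 and 10418450 per mouse.

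Matrix metalloproteinases are zinc-dependent proteases, secreted or held at the cell surface as inactive precursors, that cleave collagens, gelatin, elastin, proteoglycans and many other extracellular proteins. Tissue inhibitors of metalloproteinases bind their active sites, while ADAMTS proteases trim procollagens, cleave proteoglycans of the aggrecan family and cut von Willebrand factor, and ADAMTS-like proteins resemble them without the protease domain. In liver these genes are known mostly from stellate cells, portal fibroblasts and macrophages, where the balance of proteases and inhibitors is studied in the laying down and the removal of scar matrix.

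The counts are per gene, so the exon between the loxP sites could not be measured alone. Over the whole gene, *Usp39* (ENSMUSG00000056305) served as a check of the labels. Its level, in FPKM (fragments counted per length of exon and per total count of the mouse), was 9.35, 10.4, 8.76 and 9.78 in the controls and 8.37, 8.63, 8.70 and 8.07 in the *Usp39*-HKO mice. Every *Usp39*-HKO liver was below every control, and the means were 9.58 ± 0.706 and 8.44 ± 0.286 (SD, n = 4 each; two-sided exact permutation p = 0.029, the smallest that 70 assignments can give). The fit gave a log2 fold change of -0.41 (SE 0.11, edgeR adjusted p = 0.0212), a call that was lost under 5 of 16 alternatives. Without *Usp39*-HKO mouse A474 the edgeR adjusted p was 0.0684 and without control mouse A475 it was 0.0539 (range over the alternatives 0.0148 to 0.247). The others that lost it gave a smaller log2 fold change, -0.18 without scaling factors and -0.16 and -0.18 with limma on log2(FPKM + 1) and log2(FPKM + 0.1). The label liver fits the hepatocyte markers: 7 of the 8 listed were found by symbol (*Tf* was not), *Alb* was the most abundant at 7170.5 FPKM or more in each mouse, and none was at 0.

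A gene was tested with edgeR when 4 or more of the 8 mice held it at 0.5 FPKM or above, which 24 of the 51 genes met, among 14340 genes in all, and 27 did not. Of the 27, 6 had no count in any mouse (*Mmp1a*, *Mmp1b*, *Mmp10*, *Mmp20*, *Adamts18* and *Adamts19*). A further 7 had fewer than 20 counts over the 8 mice, namely *Mmp3*, *Mmp16*, *Mmp21*, *Timp4*, *Adamts8*, *Adamts17* and *Adamts20*. Among the tested genes, *Timp1* and *Adamts4* reached 0.5 FPKM in no control mouse, so they passed through the *Usp39*-HKO mice alone and had to differ. The tested genes are therefore not a fair sample of the 51.

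At an adjusted p under 0.05, 9 of the 24 tested genes (37.5%) were called, all 9 higher in *Usp39*-HKO livers and 0 lower. At an unadjusted p under 0.05 edgeR had 1 lower, *Mmp19*, and DESeq2 and limma also called 0 lower. Among all 14340 genes tested the share was 22.5% in either direction, 10.9% higher and 11.6% lower. Without *Timp1* and *Adamts4*, 7 of 22 (31.8%) were called, all higher, beside 9.9% higher of all genes that reached 0.5 FPKM in a mouse of each genotype. By family the calls were 2 of 10 *Mmp*, 2 of 3 *Timp*, 4 of 9 *Adamts* and 1 of 2 *Adamtsl* genes, of which 1 of 2 *Timp* and 3 of 8 *Adamts* remain without those genes. In 11 tested genes the lowest *Usp39*-HKO FPKM was above the highest control FPKM, and in 0 was it the other way round, beside 23.9% and 4.81% of all genes tested. The 11 were the 9 called genes with *Timp3* and *Adamts10*. For *Timp1* and *Adamts4* among them, the filter itself had fixed this separation. The median log2 fold change of the 24 was 0.55, or 0.46 without *Timp1* and *Adamts4*, and that of all genes tested was -0.0015.

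FPKM take no account of a shift between the libraries that TMM scaling removed: over all genes tested the median difference was 0.172 on log2(FPKM + 1), and 0.24 in edgeR without scaling factors. The 9 calls above were also made without scaling factors and with median-ratio scaling. Without scaling factors 14 of the 24 were called, all higher, beside 24.6% higher of all genes tested. Of the 24 directions, those of *Adamts7* and *Adamts13* turned from lower to higher without scaling factors. Leaving out *Usp39*-HKO mouse A474 left 6 calls among 21 tested, all higher, beside 920 of all 13833 genes higher. Without *Usp39*-HKO mouse A470 there were 7 among 21, 6 higher and *Mmp19* lower. Of all 13896 genes tested that way 2888 were called, 1343 of them higher. Leaving out control mouse A472 gave 11 among 23, all higher, beside 1593 of all 14122 genes higher.

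**Figure D1:**
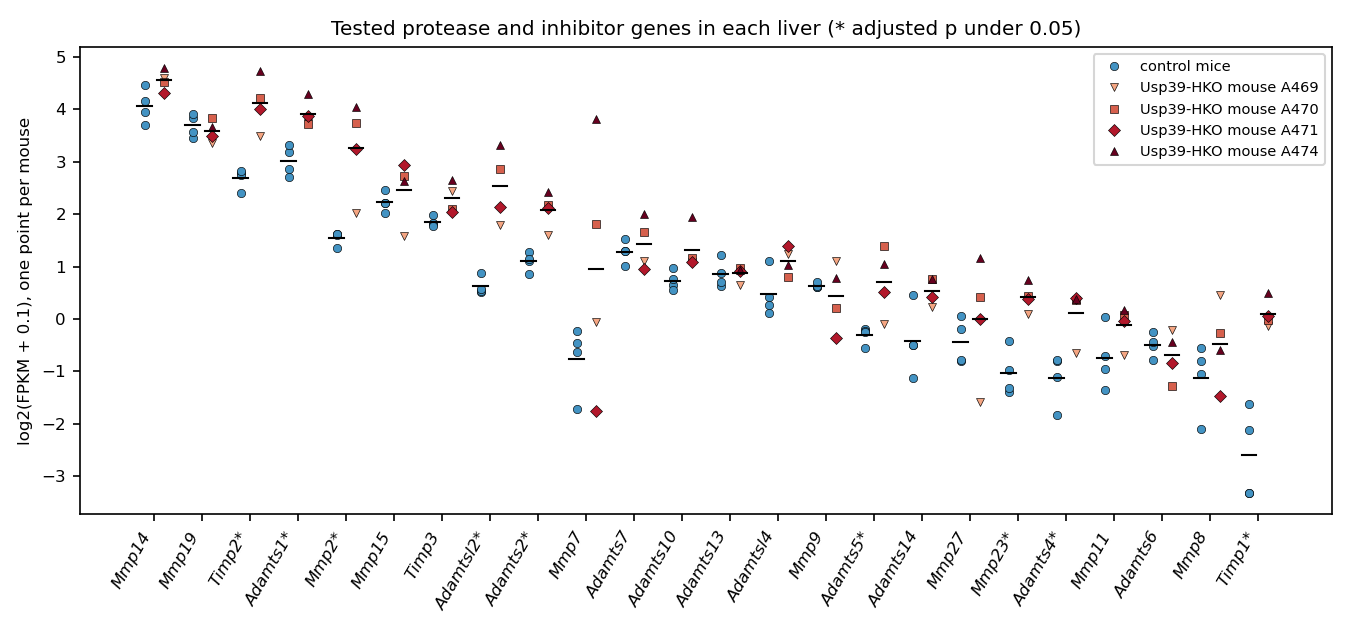
FPKM plus 0.1 on a log2 axis for the 24 tested genes in each of the 8 livers, with short lines at the group means and a star on each of the 9 called genes. In each starred gene all 4 *Usp39*-HKO points lie above all 4 control points.

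**Figure D2:**
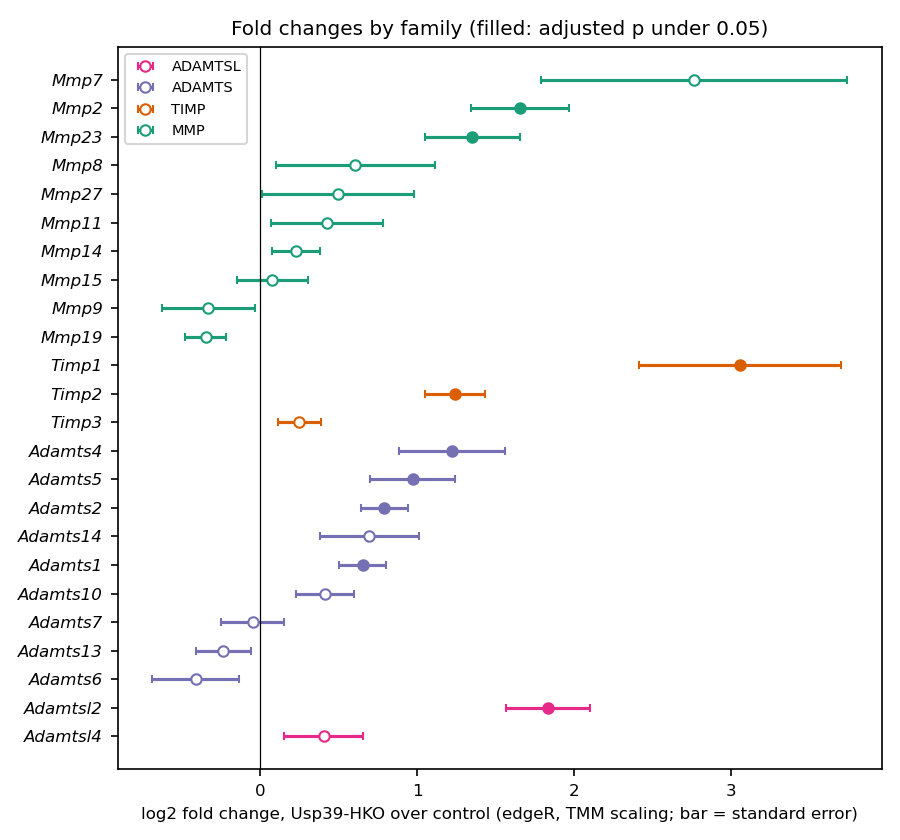
edgeR log2 fold changes (*Usp39*-HKO over control) with standard errors for the 24 tested genes, grouped by family, filled where called. The called genes run from 0.65 for *Adamts1* to 3.05 for *Timp1*, and the tested genes under 0 are all open points; *Adamts7* and *Adamts13* change sign without scaling factors.

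*Timp2* (ENSMUSG00000017466, chr11:118301069-118355740, minus strand) encodes an inhibitor that also links the precursor of MMP2 to MMP14 at the cell surface, where the precursor is activated. Its FPKM was 6.82, 6.63, 6.93 and 5.2 in the controls and 11.2, 18.5, 16.0 and 26.4 in the *Usp39*-HKO mice. The controls lay close together and all *Usp39*-HKO livers were above them, A469 the lowest and A474 the highest. *Timp2* rose with a log2 fold change of 1.24 (SE 0.19, edgeR adjusted p = 0.00182), against group means of 6.40 ± 0.808 and 18.0 ± 6.36 FPKM (SD, n = 4 each). The call was made under all 16 alternatives.

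*Timp1* (ENSMUSG00000001131, chrX:20870166-20874735, plus strand) encodes an inhibitor of most secreted MMPs and lies within *Syn1*, which is on the opposite strand. It had 0, 2, 1 and 0 counts in the controls and 7, 8, 8 and 11 in the *Usp39*-HKO mice, which corresponds to 0, 0.227, 0.131 and 0 FPKM against 0.811, 0.884, 0.944 and 1.31. Every *Usp39*-HKO liver held more counts than any control, but none held more than 11. The ratio of summed counts, scaled to the totals, was 11.1 with a 95% counting interval of 3.49 to 56.4. edgeR gave a log2 fold change of 3.05 (SE 0.64, edgeR adjusted p = 0.0072), which was 3.99 without control mouse A472, and without any 1 of the *Usp39*-HKO mice the gene no longer passed the filter. Intervals on counts cover counting error only, since counts were summed over the mice of each group, and they leave out the spread between mice. Reads without molecular identifiers are also not independent molecules, so even counting error may be larger.

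*Timp3* (ENSMUSG00000020044, chr10:86300372-86349506, plus strand) encodes an inhibitor that binds to the matrix and also blocks ADAMTS proteases. It was at 3.42, 3.44, 3.87 and 3.31 FPKM in the controls and 5.31, 4.19, 3.99 and 6.20 in the *Usp39*-HKO mice. In FPKM, without scaling factors, the groups did not overlap, yet A471 was only just above the highest control. The log2 fold change of 0.25 (SE 0.14, edgeR adjusted p = 0.224) did not pass the test, and it passed without scaling factors (0.0286, range over 15 alternatives 0.0286 to 0.444). Exons of *Syn3*, on the opposite strand, cover 21.3% of its exon bases.

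*Timp4*, an inhibitor known mainly from heart and fat, was not tested. It had 0, 0, 0 and 1 counts in the controls and 9, 2, 3 and 4 in the *Usp39*-HKO mice. The groups did not overlap, with the most counts in A469, the mouse that was lowest for *Timp2*. The ratio of summed counts was 17.6 with a 95% counting interval of 2.78 to 734.

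Summed over the 4 genes, *Timp* RNA was 10.2, 10.3, 10.9 and 8.53 FPKM in the controls and 17.5, 23.6, 21.0 and 34.0 in the *Usp39*-HKO mice. *Timp2* made up 66.6%, 64.4%, 63.4% and 61.0% of that sum in the controls and 64.1%, 78.3%, 76.2% and 77.7% in the *Usp39*-HKO mice. A469 had a share like the controls, and the other *Usp39*-HKO livers were above all of them.

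*Mmp2* (ENSMUSG00000031740, chr8:92827291-92853420, plus strand) encodes gelatinase A, which cleaves denatured collagen and basement-membrane collagen. Its FPKM was 2.94, 2.99, 2.97 and 2.45 in the controls and 3.94, 13.2, 9.39 and 16.3 in the *Usp39*-HKO mice. A469 was nearest to the controls, and the other *Usp39*-HKO livers were several times higher. *Mmp2* rose with a log2 fold change of 1.65 (SE 0.31, edgeR adjusted p = 0.00425), and all 16 alternatives made the call. Group means were 2.84 ± 0.26 and 10.7 ± 5.34 FPKM (SD, n = 4 each), so the *Usp39*-HKO mice also spread far more.

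*Mmp9*, which encodes gelatinase B, a product of neutrophils and macrophages, differed less. It was at 1.42, 1.43, 1.45 and 1.52 FPKM in the controls and 2.06, 1.05, 0.681 and 1.61 in the *Usp39*-HKO mice. Its highest *Usp39*-HKO value was in A469 and the controls lay inside the *Usp39*-HKO range. For *Mmp9* the log2 fold change was -0.33 (SE 0.30, edgeR adjusted p = 0.459). *Mmp9* is named outside the rule for named genes, after its values were seen, as the partner of *Mmp2*.

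*Mmp14* (ENSMUSG00000000957, chr14:54431612-54445364, plus strand) encodes a membrane-bound collagenase that activates the MMP2 precursor, and had the highest mean FPKM of the 51 genes. It was at 12.9, 22.0, 15.4 and 17.8 FPKM in the controls and 24.0, 22.7, 19.7 and 27.4 in the *Usp39*-HKO mice. The groups overlapped only through control mouse A472. Its log2 fold change was 0.23 (SE 0.15, edgeR adjusted p = 0.314), and it was called only without scaling factors (0.0461, range over 16 alternatives 0.0461 to 0.617). *Mmp15*, which encodes a related membrane-bound protease, was at 5.37, 4.56, 4.53 and 3.97 FPKM in the controls and 2.88, 6.49, 7.53 and 6.10 in the *Usp39*-HKO mice. A469 was the lowest of all 8 and the other *Usp39*-HKO livers were the highest. For *Mmp15* the log2 fold change was 0.08 (SE 0.23, edgeR adjusted p = 0.849), and -0.09 without A471.

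Because activation of MMP2 needs MMP14 and TIMP2 together, their RNA levels were also set against each other within each mouse, where scaling between mice plays no part. *Mmp14* over *Timp2*, in FPKM, was 1.9, 3.31, 2.21 and 3.43 in the controls and 2.15, 1.23, 1.23 and 1.04 in the *Usp39*-HKO mice. A469 was inside the control range and the other *Usp39*-HKO livers were below it. *Mmp2* over *Timp2* was 0.431, 0.451, 0.428 and 0.471 in the controls and 0.352, 0.715, 0.587 and 0.618 in the *Usp39*-HKO mice. Here A469 was below every control, and the other *Usp39*-HKO livers were above every control. The ratio of summed *Timp* to summed *Mmp* FPKM was 0.260, 0.207, 0.286 and 0.211 in the controls and 0.363, 0.331, 0.374 and 0.388 in the *Usp39*-HKO mice. In that ratio the groups did not overlap, and A469 stood with its group. *Mmp2* supplied 7.45%, 6.02%, 7.78% and 6.06% of summed *Mmp* FPKM in the controls and 8.19%, 18.6%, 16.7% and 18.7% in the *Usp39*-HKO mice. A469 was again near the controls, and the other 3 were far above them.

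*Mmp19*, which encodes a secreted protease that cleaves basement-membrane proteins, had a mean level behind only *Mmp14*. It was at 14.2, 14.9, 10.9 and 11.8 FPKM in the controls and 10.2, 14.2, 11.1 and 12.5 in the *Usp39*-HKO mice, and the groups overlapped throughout. For *Mmp19* the log2 fold change was -0.35 (SE 0.13, edgeR adjusted p = 0.0778), and the edgeR adjusted p was 0.0399 without *Usp39*-HKO mouse A470 (range over 16 alternatives 0.0399 to 0.596). Exons of genes on the opposite strand cover 28.3% of its exon bases. *Mmp23* (ENSMUSG00000029061, chr4:155650655-155653384, minus strand) encodes a protease without the hemopexin domain of other MMPs. It was at 0.279, 0.647, 0.299 and 0.410 FPKM in the controls and 0.967, 1.26, 1.21 and 1.58 in the *Usp39*-HKO mice. All *Usp39*-HKO livers were above all controls, although only 1 control mouse reached the filter of 0.5. *Mmp23* rose with a log2 fold change of 1.35 (SE 0.30, edgeR adjusted p = 0.00951), a call made under all 15 alternatives that tested it.

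*Mmp7* (ENSMUSG00000018623, chr9:7692090-7699585, plus strand) encodes matrilysin, a small protease made by epithelia. Exons of *AV064505*, on the opposite strand, cover 11.5% of its exon bases. It was at 0.204, 0.756, 0.545 and 0.629 FPKM in the controls and 0.867, 3.40, 0.196 and 13.9 in the *Usp39*-HKO mice, from 2, 8, 5 and 7 counts and 9, 37, 2 and 141 counts. A474 was far above every other mouse and A471 was the lowest of all 8, so the highest *Usp39*-HKO value was 71.0 times the lowest. The log2 fold change of 2.76 (SE 0.97, edgeR adjusted p = 0.0622) did not pass the test. It was 1.27 without A474 (edgeR adjusted p = 0.282), and the call was made without A469 (0.0286), without A471 (0.0209), without scaling factors (0.0353) and without a filter (0.00477), over a range of 0.00477 to 0.282 for 15 alternatives. *Mmp27* was the other tested protease gene with a wide range, from 0.936, 0.776, 0.474 and 0.478 FPKM in the controls to 0.233, 1.24, 0.901 and 2.15 in the *Usp39*-HKO mice. Here A469 was the lowest and A474 the highest of the 8, and the log2 fold change was 0.49 (SE 0.49, edgeR adjusted p = 0.507).

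*Mmp12*, which encodes macrophage elastase, did not reach the filter because A469 and all controls were low, and it is described because of its values. It was at 0.0602, 0.0418, 0 and 0.0133 FPKM in the controls and 0.156, 3.59, 2.64 and 2.74 in the *Usp39*-HKO mice, from 4, 3, 0 and 1 counts and 11, 265, 182 and 188 counts. A470, A471 and A474 each held over 100 counts, and A469 was above the controls but far below its group. Without a filter its log2 fold change was 5.93 (edgeR adjusted p = 9.46e-08, and 0.00224 with a filter on the mean FPKM over all mice, which it passed through the *Usp39*-HKO mice alone). *Mmp13*, the main interstitial collagenase of rodents, was seen in the same 3 mice, with 0, 1, 3 and 0 counts in the controls and 1, 40, 16 and 8 in the *Usp39*-HKO mice. A469 lay inside the control range, and the groups overlapped. Its log2 fold change without a filter was 3.55 (edgeR adjusted p = 0.00301).

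The filter on the mean FPKM of at least 0.5 tested 28 of the 51 genes and called 13, all higher, beside 10.9% higher of all genes tested that way. The added calls were *Mmp12*, *Adamts9*, *Adamts12* and *Adamts15*, and like *Timp1* and *Adamts4* these reached 0.5 FPKM in no control mouse and passed through the *Usp39*-HKO mice alone. Without these 6 genes that filter called 7 of 22. Without any filter 45 were tested and 18 called, again all higher, beside 6.41% of all genes, and these also took in *Mmp7*, *Mmp13*, *Mmp24*, *Timp4* and *Adamts3*. *Mmp8* and *Mmp11* were not called under either, and *Mmp3* was tested only without a filter and not called. Among genes with a count that were not tested, 6 of the 21 had every *Usp39*-HKO FPKM above every control FPKM and 0 had the reverse, beside 5.49% of all such genes. The 6 were *Mmp12*, *Mmp24*, *Timp4*, *Adamts3*, *Adamts15* and *Adamtsl1*.

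Of the 23 *Mmp* genes, 10 lie within 427.1 kb at chr9:7272514-7699585, in the order *Mmp13*, *Mmp12*, *Mmp1b*, *Mmp3*, *Mmp1a*, *Mmp10*, *Mmp8*, *Mmp27*, *Mmp20* and *Mmp7*. In this cluster all 6 genes with a count had their highest count in a *Usp39*-HKO mouse. So did 86.7% of the 45 protease and inhibitor genes with a count and 61.6% of all genes with a count. In the cluster the highest count was in A469 for *Mmp8*, in A470 for *Mmp12* and *Mmp13*, and in A474 for *Mmp3*, *Mmp7* and *Mmp27*. *Mmp1a*, *Mmp1b*, *Mmp10* and *Mmp20* had no count in any liver. Neighbouring members did not all share a level, and among the other neighbours *Adamts1* and *Adamts5* (chr16, 108.0 kb) were both called, while of *Adamts13* and *Adamtsl2* (chr2, 135.6 kb) only *Adamtsl2* was, and of *Adamts15* and *Adamts8* (chr9, 64.7 kb) neither was tested, with 368 and 3 counts in the *Usp39*-HKO mice.

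Promoter windows from 250 bases before to 50 after the start were found in RefSeq (GRCm38.p6) for 36 of the 51 genes. They were searched on both strands for TGAGTCA, the AP-1 motif (TGACTCA on the other strand), and for TATAAA, the TATA motif (TTTATA on the other strand). The AP-1 letters were in a window of 7 of the 10 cluster genes and of 0 of the other 26, beside 5.2% of all 32851 windows. The TATA letters were in 9 of the 10 and in 3 of the 26, beside 13.6% of windows, and 0.941% of windows held both. An AP-1 match starting within 100 bases before the start was in 2.02% of windows, and the 7 cluster matches began between 93 and 35 bases before it. Base composition differed as well, with a median GC of 41.7% in the cluster windows, 66% in the others and 52.7% over all windows. The windows shown are examples chosen after the search, those of *Mmp12*, *Mmp13* and *Mmp7*, which hold both motifs, of *Mmp10*, which also holds both and had no count, and of the called genes *Adamtsl2* and *Timp2* outside the cluster. Capitals mark AP-1 and TATA matches, each sequence reads 5′ to 3′ on the strand of its gene, and *Timp2* is on the minus strand and the others on the plus strand.
Mmp13, chr9:7272264-7272563: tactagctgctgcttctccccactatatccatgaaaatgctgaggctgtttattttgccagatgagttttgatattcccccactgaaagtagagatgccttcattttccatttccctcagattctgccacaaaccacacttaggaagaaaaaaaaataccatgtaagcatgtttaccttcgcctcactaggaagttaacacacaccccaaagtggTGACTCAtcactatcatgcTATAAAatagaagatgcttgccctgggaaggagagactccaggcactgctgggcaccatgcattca
Mmp12, chr9:7347124-7347423: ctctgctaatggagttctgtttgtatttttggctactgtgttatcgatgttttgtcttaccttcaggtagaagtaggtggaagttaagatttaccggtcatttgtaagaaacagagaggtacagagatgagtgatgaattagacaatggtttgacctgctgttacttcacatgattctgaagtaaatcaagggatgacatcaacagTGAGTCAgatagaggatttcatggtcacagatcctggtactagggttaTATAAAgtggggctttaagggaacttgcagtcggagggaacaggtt
Mmp10, chr9:7502092-7502391: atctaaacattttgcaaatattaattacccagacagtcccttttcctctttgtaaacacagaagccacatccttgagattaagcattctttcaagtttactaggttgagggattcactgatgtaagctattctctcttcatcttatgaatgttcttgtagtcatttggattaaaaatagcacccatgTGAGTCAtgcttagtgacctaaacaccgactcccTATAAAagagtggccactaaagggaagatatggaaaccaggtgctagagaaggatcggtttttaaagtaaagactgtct
Mmp7, chr9:7691840-7692139: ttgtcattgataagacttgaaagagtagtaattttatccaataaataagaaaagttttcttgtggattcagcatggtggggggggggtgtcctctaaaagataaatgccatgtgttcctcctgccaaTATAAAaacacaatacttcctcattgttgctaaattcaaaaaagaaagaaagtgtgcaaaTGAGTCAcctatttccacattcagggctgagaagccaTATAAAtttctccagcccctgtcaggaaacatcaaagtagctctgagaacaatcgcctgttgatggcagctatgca
Adamtsl2, chr2:27079129-27079428: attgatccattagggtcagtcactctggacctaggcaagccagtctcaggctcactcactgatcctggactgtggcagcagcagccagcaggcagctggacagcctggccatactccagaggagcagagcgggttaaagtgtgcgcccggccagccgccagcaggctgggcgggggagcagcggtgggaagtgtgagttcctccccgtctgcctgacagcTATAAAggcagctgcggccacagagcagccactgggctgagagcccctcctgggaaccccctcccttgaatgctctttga
Timp2, chr11:118355362-118355661: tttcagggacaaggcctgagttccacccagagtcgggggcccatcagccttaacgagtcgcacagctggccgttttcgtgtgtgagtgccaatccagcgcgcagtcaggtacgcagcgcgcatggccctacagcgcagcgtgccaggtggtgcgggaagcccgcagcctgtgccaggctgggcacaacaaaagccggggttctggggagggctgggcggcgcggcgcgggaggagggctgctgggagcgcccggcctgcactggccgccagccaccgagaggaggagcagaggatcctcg
In *Mmp13* the AP-1 letters begin 35 bases before the start and the TATA letters 16 before it, in *Mmp10* 63 and 29 before it, in *Mmp12* the AP-1 letters begin 44 before the start and the TATA letters 4 after it, and in *Adamtsl2* the TATA letters begin 30 before it. *Mmp3* and *Mmp8* are among the 9 with TATA letters, and theirs begin just 7 and 3 bases before the start. *Mmp27*, a cluster gene with counts, held neither motif. *Mmp12* and *Mmp7* each have a further RefSeq window, and neither of those holds the letters of either motif. A match describes letters in a window, not binding.

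**Figure D3:**
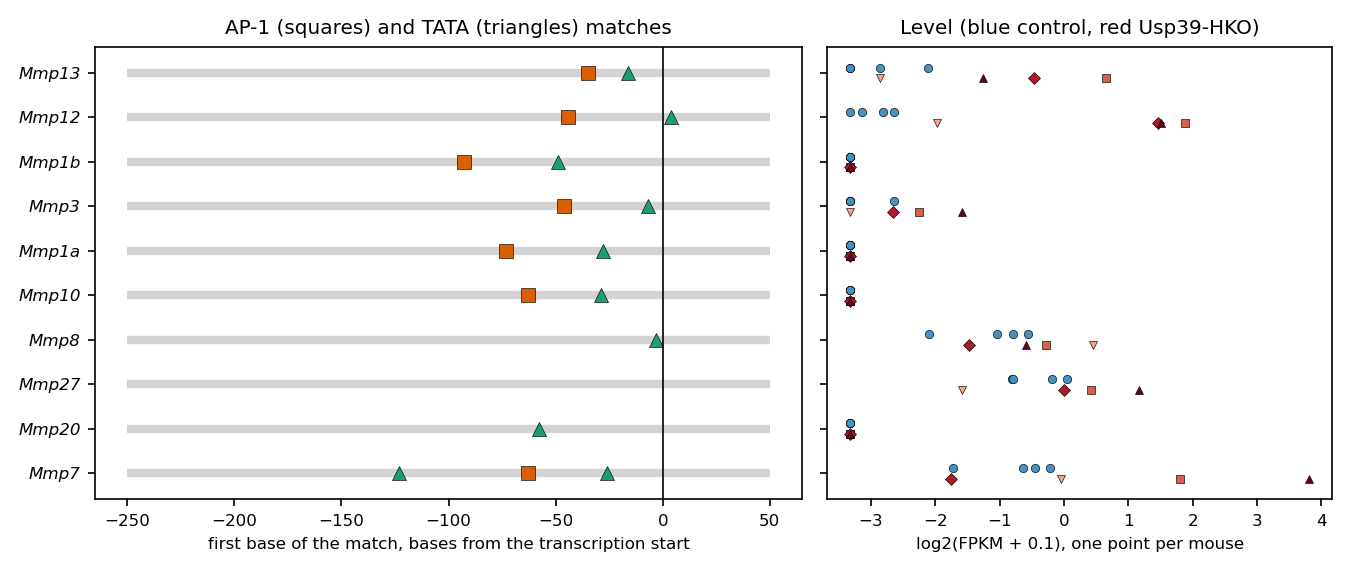
The 10 genes of the chromosome 9 cluster in genome order, with AP-1 matches as squares and TATA matches as triangles by distance in bases from the start, beside FPKM in each mouse. *Mmp12* and *Mmp13* are high in A470, A471 and A474, *Mmp7* in A474, and 4 of the 10 genes are at 0 in all mice.

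*Adamts1* (ENSMUSG00000022893, chr16:85793827-85803113, minus strand) encodes a protease of versican and aggrecan and was the most abundant *Adamts* gene. It was at 8.96, 9.93, 7.14 and 6.43 FPKM in the controls and 13.3, 13.1, 14.6 and 19.4 in the *Usp39*-HKO mice. All *Usp39*-HKO livers were above all controls, and A469 was as high as A470. *Adamts1* rose with a log2 fold change of 0.65 (SE 0.15, edgeR adjusted p = 0.0108), and all 16 alternatives made the call.

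*Adamts5* (ENSMUSG00000022894, chr16:85856173-85901828, minus strand) encodes the main aggrecan-cleaving protease of mouse cartilage. It was at 0.777, 0.757, 0.583 and 0.738 FPKM in the controls and 0.830, 2.54, 1.33 and 1.96 in the *Usp39*-HKO mice. A469 was just above the highest control. edgeR gave a log2 fold change of 0.97 (SE 0.27, edgeR adjusted p = 0.0247). The call was lost on leaving out *Usp39*-HKO mouse A470 (0.0576) or A474 (0.062), or control mouse A468 (0.0504), A473 (0.0758) or A475 (0.0632), over a range of 0.00222 to 0.0758 for 15 alternatives. *Adamts4* (ENSMUSG00000006403, chr1:171250421-171260637, plus strand) encodes a close relative. It was at 0.476, 0.482, 0.363 and 0.180 FPKM in the controls and 0.535, 1.18, 1.22 and 1.21 in the *Usp39*-HKO mice. A470, A471 and A474 were nearly equal and A469 was close to the controls. For *Adamts4* the log2 fold change was 1.22 (SE 0.34, edgeR adjusted p = 0.0238), a call lost without control mouse A473 (0.0637) or A475 (0.0615) over a range of 0.00611 to 0.0637 for 11 alternatives. Without any 1 of the *Usp39*-HKO mice *Adamts4* no longer passed the filter.

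The other proteoglycanases with more than 20 counts, *Adamts9* and *Adamts15*, are described after their values were seen, and neither passed the filter. *Adamts15* was at 0.210, 0.204, 0.225 and 0.195 FPKM in the controls and 0.784, 0.681, 0.496 and 1.71 in the *Usp39*-HKO mice. The controls were nearly equal and the groups did not overlap, with A469 above A470 and A471. Without a filter its log2 fold change was 1.84 (edgeR adjusted p = 3.2e-05, and 0.00386 with the filter on the mean FPKM). *Adamts9* was at 0.282, 0.436, 0.294 and 0.217 FPKM in the controls and 0.335, 0.886, 0.836 and 1.03 in the *Usp39*-HKO mice. A469 was inside the control range. For *Adamts9* the log2 fold change without a filter was 1.04 (edgeR adjusted p = 0.00493, and 0.0299 with the filter on the mean FPKM). Both passed the filter on the mean through the *Usp39*-HKO mice alone.

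*Adamts2* (ENSMUSG00000036545, chr11:50602084-50807573, plus strand) encodes the protease that removes the amino-terminal propeptide of fibrillar procollagens. It was at 2.33, 2.06, 2.11 and 1.71 FPKM in the controls and 2.95, 4.40, 4.24 and 5.23 in the *Usp39*-HKO mice. The groups did not overlap, with A469 the lowest of its group and A474 the highest. *Adamts2* rose with a log2 fold change of 0.79 (SE 0.15, edgeR adjusted p = 0.00447), and all 15 alternatives that tested it made the call. *Adamts14*, with the same activity, was at 0.608, 1.28, 0.358 and 0.609 FPKM in the controls and 1.07, 1.60, 1.23 and 1.60 in the *Usp39*-HKO mice. Only control mouse A472 overlapped the *Usp39*-HKO range. For *Adamts14* the log2 fold change was 0.69 (SE 0.32, edgeR adjusted p = 0.14), and the edgeR adjusted p was 0.00956 without A472 and 0.0472 without scaling factors (range over 15 alternatives 0.00956 to 0.301). *Adamts3*, the related gene that was not tested, was at 0.106 to 0.193 FPKM in the controls and 0.325 to 0.505 in the *Usp39*-HKO mice, from 29 and 82 counts in all. *Adamts3* and *Adamts14* are named outside the rule, after their values were seen.

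*Adamts13* encodes the protease that cuts von Willebrand factor in plasma and is made in liver by stellate cells. It was at 1.44, 2.23, 1.73 and 1.54 FPKM in the controls and 1.46, 1.87, 1.79 and 1.82 in the *Usp39*-HKO mice. The *Usp39*-HKO values lay inside the control range. For *Adamts13* the log2 fold change was -0.24 (SE 0.17, edgeR adjusted p = 0.363), and 0.00 without scaling factors. *Adamts12*, which encodes a protease of cartilage oligomeric matrix protein and did not pass the filter, was at 0.309, 0.333, 0.384 and 0.264 FPKM in the controls and 0.377, 1.13, 1.10 and 1.37 in the *Usp39*-HKO mice. A469 lay inside the control range and the others were above it. Without a filter its log2 fold change was 1.34 (edgeR adjusted p = 0.000593, and 0.0118 with the filter on the mean FPKM, which it passed through the *Usp39*-HKO mice alone). *Adamts10*, known for its part in fibrillin microfibrils, was at 1.46, 1.86, 1.59 and 1.37 FPKM in the controls and 2.03, 2.13, 2.03 and 3.77 in the *Usp39*-HKO mice. In FPKM, without scaling factors, the groups did not overlap and A474 stood apart. The log2 fold change of 0.41 (SE 0.18, edgeR adjusted p = 0.133) did not pass the test, and it passed only without scaling factors (0.0335, range over 15 alternatives 0.0335 to 0.362). *Adamts10*, *Adamts12* and *Adamts13* are named outside the rule, after their values were seen.

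*Adamtsl2* (ENSMUSG00000036040, chr2:27079379-27108981, plus strand) encodes a protein without protease activity that binds fibrillin and latent TGF-beta binding protein. It was at 1.74, 1.33, 1.34 and 1.38 FPKM in the controls and 3.36, 7.15, 4.31 and 9.92 in the *Usp39*-HKO mice. All *Usp39*-HKO livers were above all controls, with A469 the lowest and A474 the highest. *Adamtsl2* rose with a log2 fold change of 1.83 (SE 0.26, edgeR adjusted p = 0.00131), the smallest adjusted p of the 24, and all 15 alternatives that tested it made the call. *Adamtsl4*, a fibrillin-binding relative named after its values were seen, was at 0.986 to 2.04 FPKM in the controls and 1.64 to 2.52 in the *Usp39*-HKO mice. The fitted log2 fold change was 0.40 (SE 0.25, edgeR adjusted p = 0.279), and the edgeR adjusted p was 0.0483 without A472 (range over 15 alternatives 0.0483 to 0.506).

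The remaining tested genes were not called and overlapped between the groups. *Mmp11*, which encodes a stromelysin that furin activates inside the cell, was at 0.291 to 0.922 FPKM in the controls and 0.519 to 1.03 in the *Usp39*-HKO mice, with a log2 fold change of 0.43 (SE 0.36, edgeR adjusted p = 0.429). *Mmp8* had a log2 fold change of 0.61 (SE 0.51, edgeR adjusted p = 0.43). *Adamts7*, which like *Adamts12* encodes a protease of cartilage oligomeric matrix protein, was at 1.92 to 2.78 FPKM in the controls and 1.84 to 3.91 in the *Usp39*-HKO mice. Its log2 fold change was -0.05 (SE 0.20, edgeR adjusted p = 0.895), and 0.21 without scaling factors. *Adamts6* was at 0.479 to 0.739 FPKM in the controls and 0.314 to 0.765 in the *Usp39*-HKO mice, with a log2 fold change of -0.41 (SE 0.28, edgeR adjusted p = 0.32).

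Among the untested genes with at least 20 counts, *Mmp24*, a membrane-bound protease known from neurons, had 1, 1, 0 and 2 counts in the controls and 7, 7, 9 and 7 in the *Usp39*-HKO mice. The 4 *Usp39*-HKO livers were nearly equal, unlike in *Mmp2*. *Adamtsl1* was at 0.0547 to 0.0902 FPKM in the controls and 0.105 to 0.207 in the *Usp39*-HKO mice, without overlap. The others overlapped and stayed low: *Mmp17* reached at most 0.351 FPKM in any liver, *Mmp28* 0.286, *Mmp25* 0.252, *Adamts16* 0.185, *Adamtsl3* 0.101 and *Adamtsl5* 0.519. The 7 genes with fewer than 20 counts gave no more than 9 in any liver.

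In unscaled FPKM the *Usp39*-HKO mice held an order that many of these genes shared. Their TMM factors, which FPKM do not use, were 1.01, 1.09, 1.06 and 1.19, also lowest in A469 and highest in A474. How many of all genes shared that order was not counted. A469 was the lowest of its group in 8 of the 9 called genes, *Adamts1* being the exception, and A474 was the highest in 7, the exceptions being *Adamts4* and *Adamts5*. Summed by family, the *Mmp* genes came to 41.9 ± 5.26 FPKM in controls and 65.7 ± 17.4 in the *Usp39*-HKO group (SD, n = 4 each). *Adamts* sums were 19.3 ± 2.53 and 34.1 ± 7.42, and *Adamtsl* sums 3.19 ± 0.488 and 8.86 ± 2.91. In *Mmp* sums A469, at 48.1, was below control mouse A472, at 49.7, and in the other family sums the groups did not overlap.

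**Figure D4:**
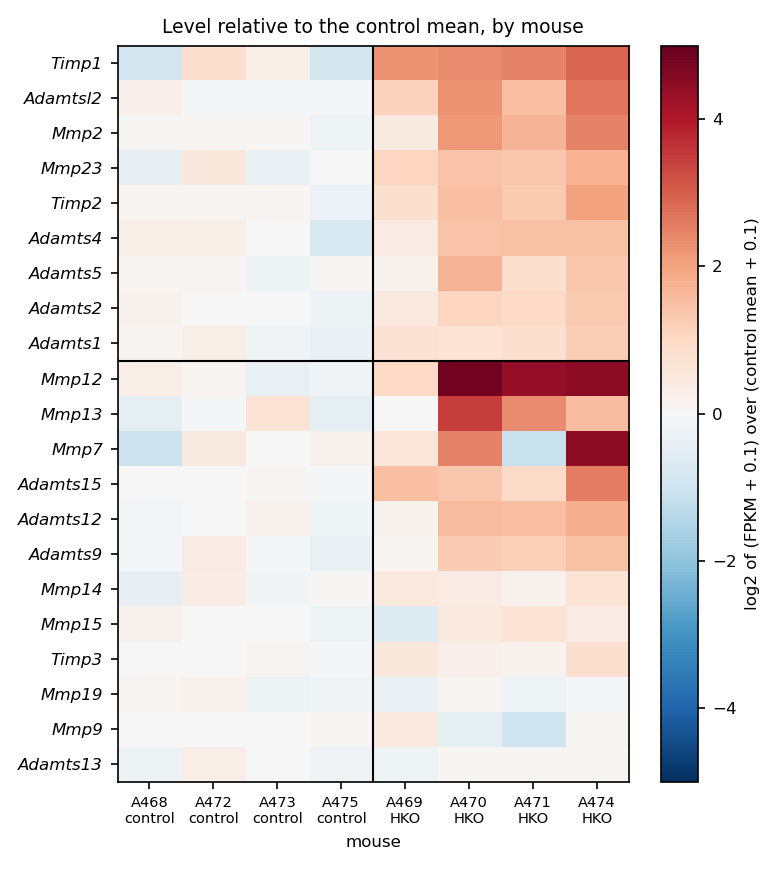
log2 of (FPKM + 0.1) over (control mean + 0.1) in each mouse for the 9 called genes, above the line, and 12 others named in the text, below it. A469 is the palest of the *Usp39*-HKO columns in most called genes and A474 the darkest.

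The mice that were high for these genes were also high for markers of stellate cells and fibroblasts, of macrophages and of cholangiocytes. In bulk liver more cells of a type and more RNA per cell cannot be told apart. Of the stellate cell and fibroblast list, 7 of 9 tested genes were called, all higher, beside 10.9% higher of all genes tested, the background also of the macrophage and cholangiocyte lists. Its summed FPKM was 82.1, 71.9, 78.3 and 72.6 in the controls and 113, 184, 151 and 220 in the *Usp39*-HKO mice, with *Dcn* the most abundant. A469 was the lowest of its group and A474 the highest, the order seen in *Timp2*, *Mmp2*, *Adamts2* and *Adamtsl2*. The macrophage list had 7 of 9 called, all higher, with sums of 322, 389, 301 and 329 in the controls and 550, 565, 577 and 824 in the *Usp39*-HKO mice and *Cd5l* the most abundant. In that sum A469 was level with A470 and A471, whereas *Mmp12* was far lower in A469 than in those mice. Members of the list differed in this. *Cd68* was at 16.4 FPKM in A469 and 29.7 and 26.4 in A470 and A471, whereas *Marco* was at 73.7 in A469 and 61.4 and 63.4 in those mice. *Adgre1* was also lower in A469 than in A470 and A471, and *Csf1r* and *Timd4* were higher. These 5 are named after their values were seen. The cholangiocyte list had 3 of 4 called, all higher, with sums of 11.2, 11.9, 11.2 and 12.6 in the controls and 14.0, 20.5, 20.3 and 34.4 in the *Usp39*-HKO mice. A474 was the highest mouse, as it was for *Mmp7*, whereas A471 was level with A470 in this sum and the lowest of all 8 for *Mmp7*. None of the genes of these lists was at 0 in all mice, and their part in the result was not tested.

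In the other lists few genes were called. Of the hepatocyte list 2 of 7 were called, both lower, beside 22.5% of all genes in either direction and 11.6% lower, with mean sums of 15241.7 ± 793 and 15139.6 ± 2017.7 FPKM (SD, n = 4 each). The endothelial list had 2 of 10 called, both lower, a share near that of all genes, with *Eng* the most abundant and mean sums of 146 ± 7.84 and 156 ± 6.26. In the neutrophil list edgeR called 0 of 7 genes (2 at an unadjusted p under 0.05, and 1 called by DESeq2 and by limma), with mean sums of 46.7 ± 19.4 and 55.8 ± 36.3 and *S100a9* the most abundant. *Mmp8*, the neutrophil collagenase, was at 0.135, 0.582, 0.384 and 0.475 FPKM in the controls and 1.27, 0.728, 0.259 and 0.565 in the *Usp39*-HKO mice. Its highest liver, A469, also had the highest neutrophil sum, 103, of which *S100a8* and *S100a9* held 32.2 and 41.6. *Retnlg*, *Cxcr2* and *Ly6g* were also highest in A469. By contrast *Camp*, *Ngp*, *Ltf* and *Mpo* were highest in control mouse A472, and *Csf3r* in A474. Apart from *S100a9*, these genes of the list are named after their values were seen. In the T and B cell list edgeR, DESeq2 and limma called 0 of 5 genes, with 0 at an unadjusted p under 0.05 in edgeR, *Cd79a* the most abundant and mean sums of 4.13 ± 0.541 and 4.68 ± 0.838. The mesothelial list had 0 of 2 by each of these tools and 0 at an unadjusted p under 0.05, with *Msln* the most abundant and mean sums of 2.10 ± 0.399 and 2.48 ± 1.05. Genes of the pancreatic acinar list did not pass the filter: their sums were 0.753, 0.468, 0.405 and 619 FPKM in the controls and 2.40, 1.22, 1.06 and 2.52 in the *Usp39*-HKO mice. Control mouse A475 alone was high, with *Ctrb1* at 254, and 7 of the 9 calls among proteases and inhibitors were made without it, all but *Adamts4* and *Adamts5*.

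**Figure D5:**
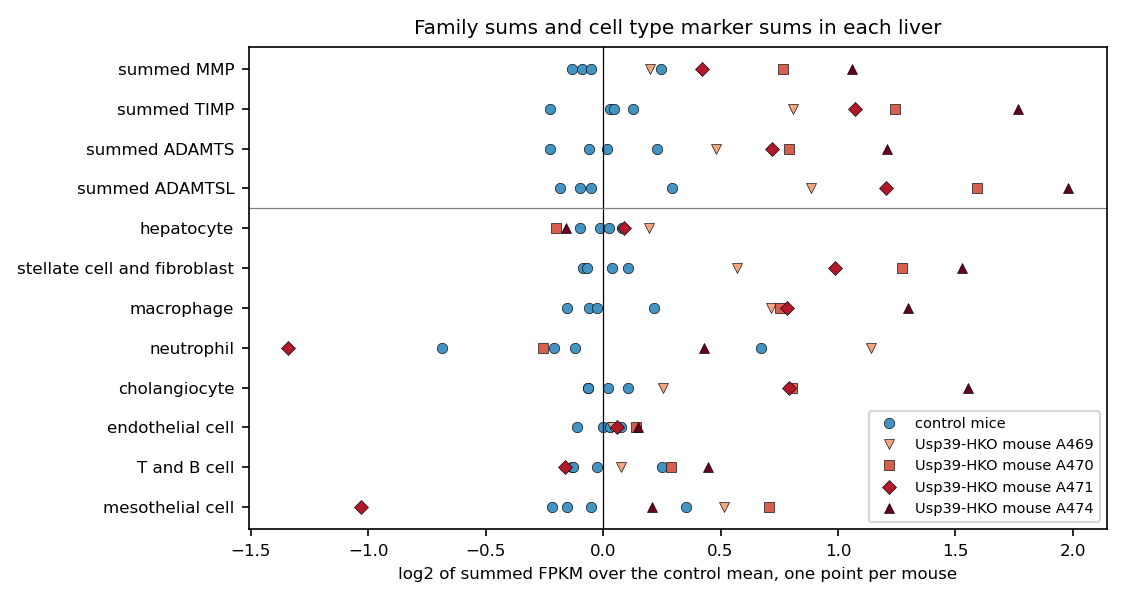
log2 of summed FPKM over the control mean in each mouse for the 4 gene families and 8 cell-type lists, the pancreatic list left out. The *Timp*, *Adamts* and *Adamtsl* families and the stellate, macrophage and cholangiocyte lists have all *Usp39*-HKO mice above all controls; no scaling factor is applied.

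Other genes of matrix turnover, taken from lists of 51 genes, included 44 tested and 31 called, 20 higher and 11 lower, beside 22.5% called, 10.9% higher and 11.6% lower over all genes tested, and the lists that follow have the same background. In the list of matrix substrates, 13 of 14 were called, 12 higher and 1 lower. Decorin (*Dcn*), a collagen-binding proteoglycan, was at 43.2, 37.5, 43.1 and 41.4 FPKM in the controls and 66.8, 95.3, 75.1 and 113 in the *Usp39*-HKO mice, in the order of *Timp2*. It rose with a log2 fold change of 0.83 (SE 0.14, edgeR adjusted p = 0.00224), and the basement-membrane linker nidogen (*Nid1*) with 1.08 (SE 0.16, edgeR adjusted p = 0.00145). Fibronectin (*Fn1*), which hepatocytes secrete into plasma, was the 1 substrate that fell, from 197, 224, 216 and 227 FPKM to 173, 180, 135 and 186. Its log2 fold change was -0.59 (SE 0.14, edgeR adjusted p = 0.0108), and the call was lost without scaling factors (0.0524, range over 16 alternatives 1.39e-05 to 0.0524). *Dcn* and *Col1a1* are in both the substrate and the stellate lists, *Vwf* in the substrate and endothelial lists, and *Stab2* in the endothelial and clearance lists.

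Among genes of plasma proteolysis, of the plasminogen system 3 of 6 were called, 1 higher and 2 lower. Plasminogen (*Plg*), the precursor of a protease that activates several MMPs, was at 502, 540, 546 and 554 FPKM in the controls and 423, 279, 290 and 271 in the *Usp39*-HKO mice. A469 was nearest to the controls here too. *Plg* fell with a log2 fold change of -0.98 (SE 0.18, edgeR adjusted p = 0.00401), and its inhibitor alpha-2-antiplasmin (*Serpinf2*) with -0.81 (SE 0.13, edgeR adjusted p = 0.00229). The gene called higher was that of the urokinase receptor (*Plaur*), named after its values were seen, at 0.267 to 0.583 FPKM in the controls and 1.02 to 2.90 in the *Usp39*-HKO mice.

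Of the inhibitors outside the *Timp* family 3 of 4 were called, 1 higher and 2 lower. Murinoglobulin (*Mug1*), a plasma trap for many proteases, was at 1349.6, 1231.8, 1656.4 and 1388.3 FPKM in the controls and 371, 685, 478 and 276 in the *Usp39*-HKO mice. No *Usp39*-HKO liver came near the controls, and the log2 fold change was -1.86 (SE 0.27, edgeR adjusted p = 0.00128). *Mug1* and *Mug2* are close paralogs, and how reads that map to both were counted is not known. The related alpha-macroglobulin *Pzp* fell with a log2 fold change of -0.63 (SE 0.14, edgeR adjusted p = 0.0107). The inhibitor called higher was the membrane-anchored *Reck*, named after its values were seen, at 1.25 to 1.60 FPKM in the controls and 2.17 to 2.83 in the *Usp39*-HKO mice.

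Of the convertases that cut MMP and ADAMTS precursors, with the MMP inducer basigin, 3 of 5 were called, all lower. *Pcsk6* fell with a log2 fold change of -0.71 (SE 0.13, edgeR adjusted p = 0.00364) and kept its call under all 16 alternatives. *Furin*, at -0.43 (SE 0.14, edgeR adjusted p = 0.0422), lost its call under 11 of 16, among them each left-out mouse but A469. *Pcsk7*, at -0.33 (SE 0.10, edgeR adjusted p = 0.0337), also lost it under 11, among them each left-out mouse but A471 and A472. Their edgeR adjusted p ranged up to 0.218 and 0.552. Basigin (*Bsg*) was at 191 to 259 FPKM in the controls and 258 to 293 in the *Usp39*-HKO mice, with a log2 fold change of 0.11 (SE 0.13, edgeR adjusted p = 0.591).

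The procollagen C-proteinase gene *Bmp1*, which removes the other propeptide from the collagens that ADAMTS2 trims, was at 21.4, 25.3, 23.8 and 29.2 FPKM in the controls and 16.8, 16.2, 16.2 and 14.8 in the *Usp39*-HKO mice. The groups did not overlap, and *Bmp1* fell with a log2 fold change of -0.87 (SE 0.12, edgeR adjusted p = 0.00119), opposite to *Adamts2*. Its enhancer *Pcolce* rose with 0.98 (SE 0.24, edgeR adjusted p = 0.0134), and these were the 2 of 3 tested genes called in that list. Of the cathepsins and cystatins 4 of 7 were called, all higher. The cysteine cathepsin *Ctss* rose with 0.84 (SE 0.12, edgeR adjusted p = 0.00137). The collagen-degrading *Ctsk* rose with 1.26 (SE 0.32, edgeR adjusted p = 0.0166), a call lost without A474 (0.0517), A473 (0.0507) or A475 (0.0524), over a range of 0.00482 to 0.0524 for 15 alternatives. The most abundant, *Ctsl* and *Ctsd*, were not called, at 0.24 (SE 0.18, edgeR adjusted p = 0.376) and 0.27 (SE 0.12, edgeR adjusted p = 0.126). Without scaling factors both were, *Ctsl* at 0.47 (edgeR adjusted p = 0.0446, range over 16 alternatives 0.0446 to 0.672) and *Ctsd* at 0.51 (edgeR adjusted p = 0.00922, range 0.00922 to 0.309). *Ctsd* was also called with limma, with an adjusted p of 0.0142 on log2(FPKM + 1) and 0.0141 on log2(FPKM + 0.1).

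Of the clearance receptors 3 of 5 were called, 1 higher and 2 lower. *Mrc2*, the receptor by which mesenchymal cells take up collagen fragments, was at 0.343, 0.378, 0.262 and 0.273 FPKM in the controls and 0.725, 1.60, 1.66 and 3.03 in the *Usp39*-HKO mice. All *Usp39*-HKO livers were above all controls in the order A469, A470, A471 and A474, and the log2 fold change was 2.21 (SE 0.35, edgeR adjusted p = 0.002). No control reached 0.5 FPKM, so *Mrc2* passed the filter through the *Usp39*-HKO mice alone and had to differ, and without it 2 of 4 clearance receptors were called, both lower. *Lrp1*, which clears proteases bound to inhibitors, was at -0.39 (SE 0.13, edgeR adjusted p = 0.0472) and lost its call under 12 of 16 alternatives, among them each left-out mouse but A469. *Mrc1*, the mannose receptor of macrophages and endothelium, was at -0.09 (SE 0.12, edgeR adjusted p = 0.62), and turned to 0.16 without scaling factors.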

How the data were processed

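The authors deposited raw read counts and FPKM per gene and mouse; the counts were not normalized, and the deposited FPKM divide each count by exon length and library total, which gave back 100% of them within 1e-4. The submitters' processing notes name Trim Galore 0.6.1, FastQC 0.11.9, HISAT2, Picard, featureCounts and DESeq2, with mm10 as the genome. Annotation release, strandedness and the handling of reads that map to several genes are not given in the sources used here. The authors' own comparison columns were not used. The table's 55699 entries hold 55385 gene identifiers, 27878 of them without a symbol, and the 314 repeats carry the same values and were read once.

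The filter asked for 0.5 FPKM or more in 4 or more of 8 mice. The quasi-likelihood test of edgeR 4.0.16 (R 4.3.3) used the counts and TMM scaling, whose factors ran from 0.911 to 0.940 in control and from 1.01 to 1.19 in *Usp39*-HKO libraries, with genotype as the only term. P-values are two-sided and Benjamini-Hochberg adjusted over all 14340 genes, and each SE was derived from the F statistic. The common biological coefficient of variation was 0.179. Pairs of mice with the same genotype had a chi-square of 7.02 to 36.4 for each degree of freedom, above counting error alone. A floor of 3 counts was 0.288 to 0.349 CPM. Limma 3.58.1 and DESeq2 1.42.0 were run as alternatives. The edgeR and DESeq2 fits were first tried on simulated data, and the limma fits and the permutation test were not.

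The members and the gene lists (7 of matrix turnover, 9 of cell types) were chosen with earlier results of these data known. Named genes are *Usp39*, each called member, the 4 *Timp* genes, the 8 most abundant members, tested members ranging over at least 5 times within a genotype, members gaining or losing a call under many alternatives, and in each list the most abundant and most clearly called genes. Every other member named was chosen after its values were seen. Alternatives for *Usp39* and for named genes of the lists were added after seeing the data.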

Additional observations from a re-analysis of the deposited data

Results flagged for a closer look

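In 98 groups of 4 mice, each the FPKM of a tested gene or a sum or ratio in 1 genotype, 7 held a mouse far from the other 3. Chance flags about 1 in 20 groups. *Mmp2* in control mouse A475 was at 2.45 FPKM, with the other controls at 2.94 to 2.99. *Adamtsl2* in control mouse A468 was at 1.74 FPKM, with the others at 1.33 to 1.38. *Adamts10* in *Usp39*-HKO mouse A474 was at 3.77 FPKM, with the others at 2.03 to 2.13. *Adamts4* in *Usp39*-HKO mouse A469 was at 0.535 FPKM, with the others at 1.18 to 1.22. The *Timp2* share of summed *Timp* FPKM was 64.1% in *Usp39*-HKO mouse A469 and 76.2% to 78.3% in the others. The summed FPKM of the macrophage list was 824 in *Usp39*-HKO mouse A474 and 550 to 577 in the others. The summed FPKM of the pancreatic acinar list was 619 in control mouse A475 and 0.405 to 0.753 in the other controls.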

How the results depend on the processing

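The 9 calls among proteases and inhibitors were the same genes with median-ratio scaling, DESeq2 and limma with either pseudocount. Of all 14340 genes, 1561 were called higher in the main fit, 1606 with median-ratio scaling and 1700 with DESeq2. With limma the number was 3031 on log2(FPKM + 1) and 3061 on log2(FPKM + 0.1). Their number was 14 without scaling factors, where 24.6% of all genes were called higher, 18 without a filter and 3 at a mean FPKM of at least 5, where 6 were tested, and leaving out 1 mouse gave 6 to 11. Fewer or more genes tested is part of the last filters, and for the scaling the cause was not tested. Over all genes, 3225 calls became 1595 at a mean FPKM of at least 5, among 6672 tested, and 1917 to 3321 when 1 mouse was left out (1917 without A474, 1917 without A473, 2038 without A475). The 31 calls in the lists of matrix turnover became 20 at that filter and 21 to 32 with a mouse left out. Higher genes were 48.4% of calls with TMM, 83.5% without scaling factors and 82.6% with limma on log2(FPKM + 1).

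Directions turned in 4 genes, and the cause was not tested. *Adamts13* had a log2 fold change of 0.0143 with limma on log2(FPKM + 0.1), 0.0070 on log2(FPKM + 1) and 0.0034 without scaling factors. *Adamts7* had 0.144, 0.1158 and 0.2063 in the same order, and with a mouse left out -0.2131 to 0.0978 (0.0642 without A469, 0.0978 without A471, 0.0446 without A473). *Mmp15* had -0.0905 to 0.3076 with a mouse left out (-0.0905 without A471, -0.0001 without A475). *Mrc1* had 0.1315, 0.1279 and 0.1556 in the order of *Adamts13*.

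The mice were littermates, but the labels do not give the litter of each, so no paired analysis was possible and litter was not in the model. With 4 mice a genotype and no batch in the labels, batch could not be tested. Genes at a few counts per mouse, such as *Timp1* and *Timp4*, carry wide counting intervals. *Mmp13*, also low in the controls, was given no such interval. The 27 untested genes include 6 with no count, for which a floor of 3 counts is the limit. Protein or protease activity was not measured.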
